A study of Mus musculus with 14 samples.

Results

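Homologous recombination, the Fanconi anemia pathway and the DNA damage checkpoints were followed as a group of 39 listed genes in sorted mouse B cells. Members were taken by annotated gene symbol, and each was represented by its probe set with the highest mean log2 intensity over all 14 arrays. By this rule 37 of the 39 had a value, among 18193 genes with a probe set carrying a single symbol. The other 2 are not analysed here.

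Total RNA was amplified and hybridised to Affymetrix arrays, 1 array per sorted sample. All mice were male C57Bl/Ka with no engineered allele named in the labels, and all cells came from the spleen and were sorted by flow cytometry. Germinal center cells (3 arrays) came from mice aged 6 to 10 weeks, 14 days after an intraperitoneal injection of alum-precipitated NP-CGG, a hapten coupled to chicken gamma globulin. They bound NP, were B220 positive and PNA positive, and had low CD38. Plasma cells (4 arrays) were taken at 7 days from mice aged 5 to 9 weeks, bound NP and carried syndecan-1, with low B220 and no PNA. Memory cells (4 arrays) were taken at 10 to 12 weeks from mice aged 14 to 18 weeks, bound NP, had high CD38 and lacked IgM, IgD and PNA. Naive cells (3 arrays) came from unimmunized mice aged 4 to 8 weeks and were gated on B220, CD23, IgD and low IgM. The immunizing dose was 100 µg, except that plasma replicate 1 has no dose in its label. Antigen, time after immunization, age and gate therefore change together between the subsets and cannot be told apart. The gates of all 4 subsets used the lambda light chain, so these samples are a subset of B cells. The labels do not state whether replicates are different mice, so p-values measure the spread between sorted samples.

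As background, homologous recombination repairs a double-strand break by copying an intact sister chromatid. BRCA proteins load a recombinase onto resected single-stranded DNA, partner proteins help it invade the sister, and helicases and nucleases resolve the joined molecules. The Fanconi pathway unhooks crosslinks between DNA strands and protects stalled forks, and the ATM and ATR kinases signal breaks and stalled forks to the effector kinases CHK2 and CHK1. Germinal center B cells are known for rapid division and for deliberate DNA lesions at their immunoglobulin genes.

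The deposited values were RMA intensities on a linear scale, in arbitrary units. An array's background was taken as the brightest of its 27 unspiked bacterial control probe sets, which lay between 10.96 and 16.1. Markers of germinal center and plasma cells went with those 2 labels. Summed intensities of 8 germinal center markers were 9962 to 12190 on germinal center arrays and 752 to 1882 on the others. Those of 10 plasma cell markers were 38000 to 51590 on plasma arrays and 2953 to 6068 on the others. Neither sum set memory apart from naive arrays. The sums of 8 B cell markers, 25900 to 27100 on memory and 24610 to 27940 on naive arrays, overlapped too. Single markers did differ in memory over naive cells at an adjusted p under 0.05 (limma). Of the 8 germinal center markers 2 were called higher (25%) and 1 lower (12.5%). Of the 10 plasma cell markers 4 were higher (40%) and 1 lower (10%). Among all genes these shares were 2.31% and 3.26%. Of the other cell types the sorts could hold, 10 T and NK cell markers summed to 177 to 256 and 6 erythroid markers to 56.8 to 87.7 over all arrays. The 12 myeloid markers summed to 157 to 311 on plasma arrays and 145 to 188 elsewhere. In plasma over naive cells 4 of these 12 were called higher (33.3%) and 1 lower (8.33%), beside 14.2% and 16.1% of all genes. The 10 T and NK cell markers gave 2 higher (20%) and 0 lower there. Whether other cells contributed to the plasma samples was not tested. The 3' to middle signal ratio of actin is a measure of RNA quality. It was 10.1, 17.6 and 6.11 on the germinal center arrays and 5.47 to 6.91 on plasma arrays. On naive arrays it was 4.39 to 5.30 and on memory arrays 4.15 to 5.325. Every germinal center and plasma array thus lay above all naive and memory arrays, so this ratio changes together with the subsets. The same ratio for Gapdh was 8.23 to 10.9 on germinal center arrays and 5.45 to 8.41 on plasma arrays. It was 11.03 to 13.02 on memory arrays and 9.44 to 12.0 on naive arrays. Germinal center arrays overlapped with naive and plasma arrays here but lay below all memory arrays. Plasma arrays lay below all naive and memory arrays. The Gapdh ratio was not used as a covariate. With the actin ratio as a covariate, 13 of the 115 differences called over all 6 comparisons lost their call, and 11 of these 13 moved by less than 1.5 times on the log2 scale.

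Most of these genes were higher in germinal center and plasma cells than in naive cells, and memory cells stood close to naive cells. In germinal center over naive cells, 23 of the 37 members rose and 2 fell, while 8.37% of all genes were called higher and 11.1% lower. Calls were made at an adjusted p under 0.05 (limma, Benjamini-Hochberg over all 18193 genes). The members' median log2 fold change was 1.00, beside 0.06 over all genes. For plasma over naive cells, 21 members rose and 4 fell, against 14.2% and 16.1% of all genes, with a median of 0.86 beside 0.06. Memory over naive cells gave 0 members higher and 1 lower by limma, against 2.31% and 3.26% of all genes, with a median of -0.29 beside -0.03. At an unadjusted p under 0.05 these counts were 1 and 6. All 23 and all 21 members called higher in germinal center and plasma cells had no overlap with naive arrays. Such calls made up 7.95% and 13.4% of all genes, and 95% and 94.7% of all genes called higher, so a lack of overlap goes with nearly every call.

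The size of many changes depended on the probe set. Of the 37 members 24 had 43 other probe sets, of which 11 were above background on all arrays. With the mean over all probe sets of a gene in place of the brightest, 62 of the 115 called differences moved by over 1.5 times on the log2 scale, 61 of them to a smaller value, and 13 lost their call. Centring arrays on the median gene ended 11 calls, among them those of Bard1, Rad51c, Rad51d, H2ax and Topbp1 in plasma over naive cells and those of Brip1, Nbn, Fancl and Topbp1 in germinal center over naive cells.

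Markers of dividing cells moved with these genes. All 9 measured markers rose in germinal center over naive cells, with a median log2 fold change of 4.84, and all 9 rose in plasma over naive cells, with a median of 5.03. Their summed intensity was 8506 to 16220 on germinal center arrays, 9991 to 12050 on plasma arrays and 337 to 496 on memory arrays, against 131 to 168 on naive arrays. Mki67, a nuclear protein of cycling cells, averaged 6850 in germinal center cells, 5813 in plasma cells and 228.8 in memory cells, against 14.6 in naive cells. It was the only 1 of the 9 markers called in memory over naive cells, where their median log2 fold change was 0.165. The part of cell division in the differences of the repair genes was not tested. In these bulk samples, more cells that express a gene and more RNA per cell cannot be told apart.

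**Figure D1:**
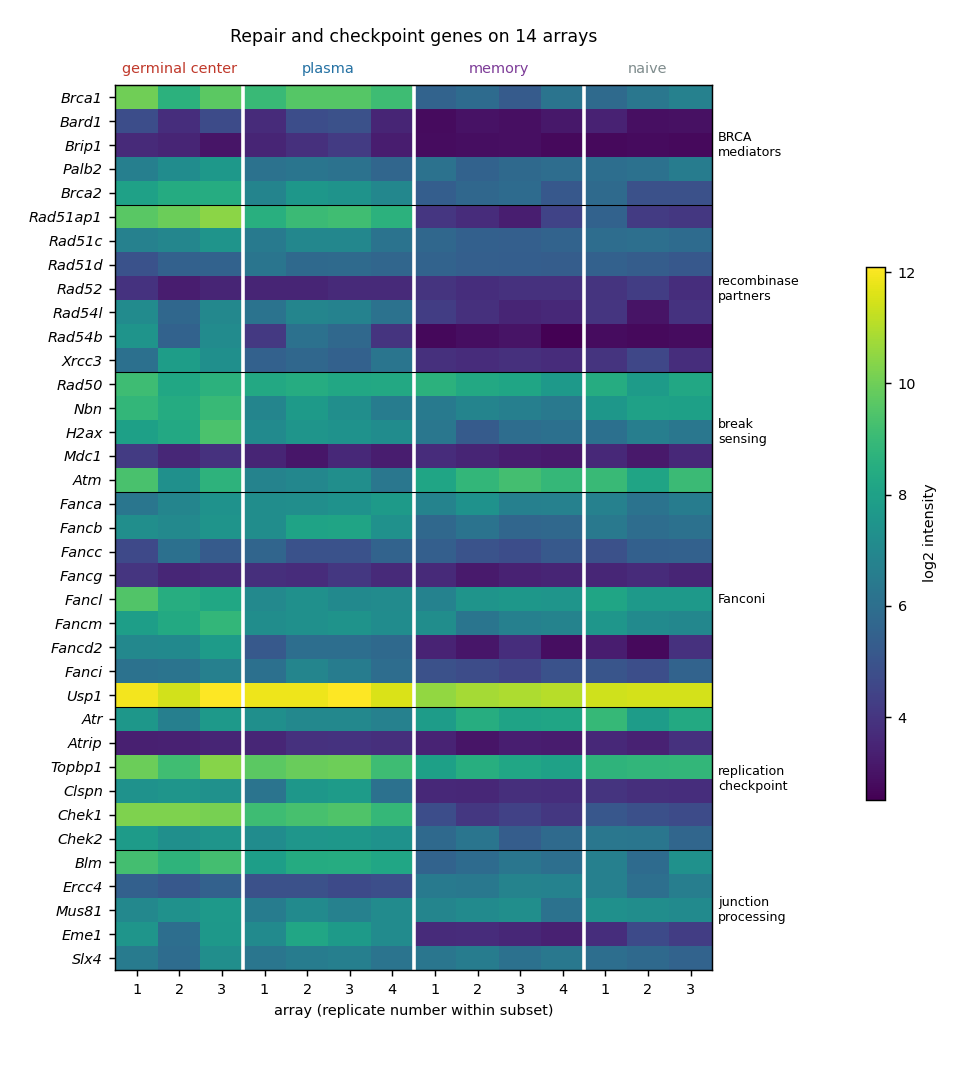
Log2 intensity of the 37 measured genes (rows, by role) on each of the 14 arrays (columns, germinal center, plasma, memory and naive from left to right). The rows of Brca1, Rad51ap1 and Chek1 change color between the first 7 and the last 7 columns, whereas Rad50 and Mus81 keep similar colors throughout.

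**Figure D2:**
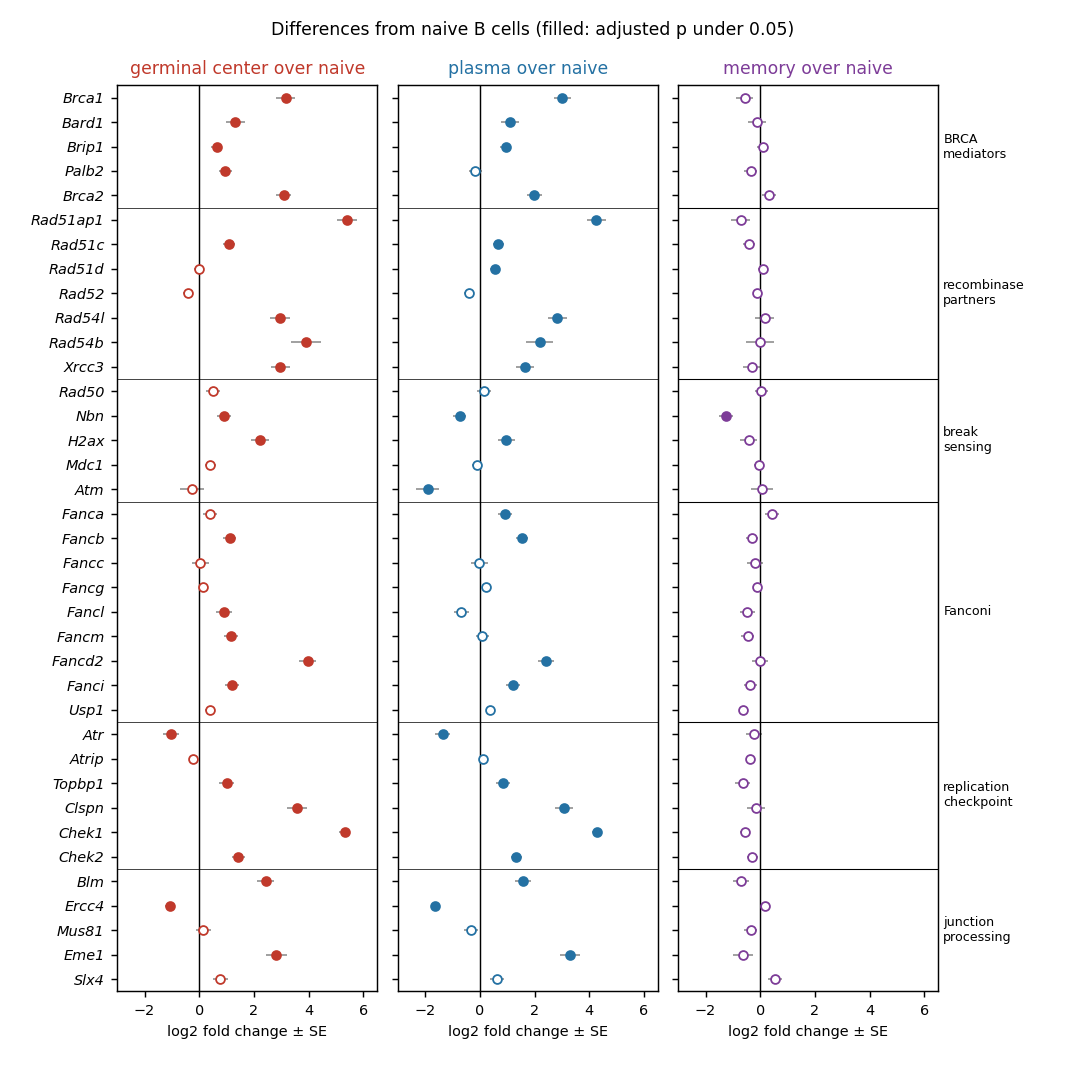
Log2 fold change (points) and standard error (bars) of each gene over naive cells, in germinal center (left), plasma (middle) and memory cells (right). Fitted values of Bard1, Brip1, Mdc1 and Rad54b rest on naive arrays below background. Filled points have an adjusted p under 0.05: 25 for germinal center cells, 25 for plasma cells and 1 for memory cells.

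Promoter sequence was examined because so many members moved together. The RefSeq table (build GRCm38.p6) gave a window from 250 bases before to 50 after the start for 30 of the 37 members and for 14452 of the 18193 genes. It was searched on both strands for 4 E2F-type words, TTTGGCGC, TTTCGCGC, TTTCCCGC and TTTGCCGC, which are like the sites bound by the cell cycle factors of the E2F family. A word occurred in 8 of the 30 members with a promoter (26.7%), beside 3.8% of all genes. Genes with several listed starts counted once if any window matched. Of the 19 members higher in germinal center over naive cells that had a promoter, 6 held a word (31.6%), as did 2 of the 11 others (18.2%). The word CCAAT, bound by NF-Y, occurred in 18 of the 30 members (60.0%), beside 42.0% of all genes. TTTGAA, the cell cycle homology word, occurred in 2 of them (6.7%), beside 15.7% of all genes. A matching word is a description of the sequence and not evidence of binding. The 30 bases around each E2F-type word are given, with the word in capitals as it reads on the gene's strand, for the 6 members that rose and then for Mdc1 and Fancg, which passed no test.
Brca2 (chr5:150522442-150522471, plus strand, word starting 168 bases before the start): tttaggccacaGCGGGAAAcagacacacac
Bard1 (chr1:71103163-71103192, minus strand, word starting 209 bases before the start): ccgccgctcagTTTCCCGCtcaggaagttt
Clspn (chr4:126556990-126557019, plus strand, word starting at base 22 of the transcript): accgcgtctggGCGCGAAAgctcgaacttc
Chek2 (chr5:110839820-110839849, plus strand, word starting 152 bases before the start): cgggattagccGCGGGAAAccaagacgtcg
Topbp1 (chr9:103305187-103305216, plus strand, word starting 129 bases before the start): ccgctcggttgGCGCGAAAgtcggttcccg
Rad51c (chr11:87404477-87404506, minus strand, word starting at base 12 of the transcript): gtttccagcgcTTTCGCGCctcttgctcta
Rad51c (chr11:87404941-87404970, minus strand, word starting 5 bases before the start): cccccgcgaggGCGGGAAAagcaaggggtc
Mdc1 (chr17:35841471-35841500, plus strand, word starting 16 bases before the start): tcttcagcctgTTTCCCGCcggtagccgca
Fancg (chr4:43010335-43010364, minus strand, word starting 52 bases before the start): tttcttttcagTTTCCCGCggaaccgtctc
Rad51ap1 and Chek1, the members with the largest rises in germinal center over naive cells, held none of these words. The 100 bases before their start are given for that reason. In Rad51ap1 the capitals mark a CCAAT word read on the other strand, and the stretch of Chek1 has none.
Rad51ap1 (chr6:126939588-126939687, minus strand): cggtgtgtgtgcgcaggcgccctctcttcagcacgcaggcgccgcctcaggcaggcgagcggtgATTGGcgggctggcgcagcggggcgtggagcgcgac
Chek1 (chr9:36726659-36726758, minus strand): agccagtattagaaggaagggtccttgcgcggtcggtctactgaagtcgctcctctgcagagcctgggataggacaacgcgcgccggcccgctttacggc

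Among the BRCA mediators, all 5 rose in germinal center over naive cells and 4 of 5 rose in plasma over naive cells. BRCA1 is a ubiquitin ligase that, with its partner BARD1, licenses resection of broken ends. Brca1 read 1050.2, 408 and 823 on the germinal center arrays, 511, 769, 773 and 556 on the plasma arrays and 47.9, 58.3, 38.5 and 73.6 on the memory arrays, against 57.2, 80.8 and 107 on the naive arrays. Its germinal center and plasma arrays were all above its memory and naive arrays. The log2 fold change was 3.16 ± 0.34 in germinal center (standard error, adjusted p = 1.02e-05) and 3.02 ± 0.32 (adjusted p = 3.88e-06) in plasma cells over naive cells, 8.92-fold and 8.1-fold higher. The mean over its 4 probe sets, 3 of them above background on at most 3 arrays, gave 0.83 in germinal center and 0.89 in plasma over naive cells. BRCA2, the protein that loads the recombinase, gave a graded pattern. Brca2 read 259, 342 and 348 on the germinal center arrays, 115, 192, 173 and 124 on the plasma arrays and 42.3, 52.3, 58.4 and 35.4 on the memory arrays, against 57.1, 29.4 and 29.9 on the naive arrays. All germinal center values lay above all plasma values, and these lay above the memory and naive values. Its log2 fold change over naive cells was 3.09 ± 0.28 (adjusted p = 1.87e-06) in germinal center and 2.00 ± 0.26 (adjusted p = 3.21e-05) in plasma cells. Bard1 read 27.2, 13.7 and 26 on the germinal center arrays, 13, 27.7, 29.6 and 11.4 on the plasma arrays and 7.05, 7.98, 7.57 and 8.86 on the memory arrays, against 10.8, 7.58 and 7.8 on the naive arrays. Its memory and naive arrays did not exceed background, and 2 of 3 germinal center and 3 of 4 plasma arrays did. Bard1 was thus at least 1.64-fold higher in germinal center (adjusted p = 0.0165) and at least 1.44-fold higher in plasma cells (adjusted p = 0.018) than in naive cells. Such bounds set the mean of the brighter subset against the background of the dimmer subset's arrays, or against the gene's own value there where that is higher. With intensities floored at 16, neither Bard1 call remained. The germinal center call was also lost without germinal center replicate 1 or 3 or naive replicate 2 or 3 (adjusted p 0.0534 to 0.0629), and the plasma call without plasma replicate 2 or 3 or naive replicate 2 or 3 (adjusted p 0.0531 to 0.0645).

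Palb2, which bridges BRCA1 and BRCA2, rose in germinal center over naive cells by 0.95 ± 0.24 (adjusted p = 0.0117) and gave -0.16 ± 0.23 (adjusted p = 0.65) in plasma cells. The germinal center call was lost without naive replicate 1 (log2 fold change 0.84, adjusted p 0.0556). After adjustment for the actin ratio the log2 fold change was 1.13, adjusted p = 0.0986, no smaller. The helicase gene Brip1 passed the test in germinal center (adjusted p = 0.043) and plasma cells (0.00165) over naive cells. No fold is given, since only 1 of its 14 values, on a plasma array, was above background. The plasma call was lost with intensities floored at 16 (adjusted p = 0.561). Its germinal center call was lost in 9 of 13 alternative settings and without germinal center replicate 1 or 2, plasma replicate 2, memory replicate 1, 2, 3 or 4 or naive replicate 1, 2 or 3 (adjusted p 0.0535 to 0.143).

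The recombinase partners held the largest rise of all members. RAD51AP1 stimulates strand invasion. Rad51ap1 read 809.6, 978 and 1375 on the germinal center arrays, 376, 531, 569 and 408 on the plasma arrays and 16.5, 13.2, 9.91 and 22.1 on the memory arrays, against 46.6, 18.4 and 16.7 on the naive arrays. Germinal center arrays were highest and plasma arrays next, with no overlap between them or with memory and naive arrays. Its log2 fold change was 5.41 ± 0.37 (adjusted p = 1.03e-07) in germinal center and 4.26 ± 0.34 (adjusted p = 2.64e-07) in plasma over naive cells, 42.4-fold and 19.1-fold higher. Other Rad51ap1 probe sets gave smaller changes: 4.04 and 3.48 for one, and 1.04 and 1.11 for another that was above background on all 14 arrays. The mean over its 4 probe sets was 2.73 in germinal center and 2.29 in plasma over naive cells. RAD54B and RAD54L are motor proteins that remodel the invading filament. Rad54b read 179, 46.2 and 143 on the germinal center arrays, 17.4, 69, 54.4 and 15.7 on the plasma arrays and 6.6, 7.26, 8.25 and 5.74 on the memory arrays, against 7.08, 6.81 and 7.17 on the naive arrays. None of its memory or naive arrays was above background. Within germinal center cells replicate 2 was the lowest, and plasma replicates 1 and 4 were lower than 2 and 3. Rad54b was at least 8.14-fold higher in germinal center (adjusted p = 0.000119) and at least 2.46-fold higher in plasma than in naive cells (adjusted p = 0.0043). With intensities floored at 16, the plasma call of Rad54b was lost (1.00, adjusted p = 0.303).

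Rad54l read 143, 52.2 and 126 on the germinal center arrays, 71.4, 117, 108 and 70.6 on the plasma arrays and 19.3, 14.4, 11.4 and 12.2 on the memory arrays, against 16, 8.2 and 15 on the naive arrays. Germinal center and plasma arrays were above all others. The log2 fold change was 2.97 ± 0.37 (adjusted p = 4.06e-05) in germinal center and 2.83 ± 0.34 (adjusted p = 1.64e-05) in plasma over naive cells. Other probe sets of Rad54l differed for plasma cells: 2 of them gave log2 fold changes of 3.54 and 3.49 in germinal center over naive cells, and -2.76 and -2.71 in plasma over germinal center cells, where the chosen one gave -0.13. The mean over its probe sets gave 1.10 in plasma over naive cells. XRCC3 and RAD51C form a complex that acts with the recombinase. Xrcc3 read 66.6, 233 and 155 on the germinal center arrays, 45.6, 52.9, 45.5 and 76.5 on the plasma arrays and 14.4, 13.3, 14.6 and 13.2 on the memory arrays, against 15.5, 23.3 and 13.8 on the naive arrays. All germinal center and plasma values exceeded all memory and naive values. Its log2 fold change was 2.97 ± 0.35 (adjusted p = 2.88e-05) in germinal center and 1.66 ± 0.33 (adjusted p = 0.00137) in plasma over naive cells. The chosen probe set is of the _x_at type, which can hybridise to other transcripts, and the gene's other probe set gave 0.38 in germinal center over naive cells. Their mean gave 1.67 in germinal center and 1.07 in plasma over naive cells. Rad51c read 107, 122 and 177 on the germinal center arrays, 86.8, 124, 124 and 72.4 on the plasma arrays and 53.4, 44.3, 42.3 and 47.1 on the memory arrays, against 61.7, 65.5 and 58.8 on the naive arrays. Here too both activated subsets lay above naive cells on every array, by 1.09 ± 0.22 (adjusted p = 0.00251) in germinal center and 0.68 ± 0.21 (adjusted p = 0.0213) in plasma cells. The plasma call was lost without plasma replicate 2 or 3 or naive replicate 1 or 3 (log2 fold change 0.57 to 0.68, adjusted p 0.0606 to 0.0706). With a probe set that was nowhere above background averaged in, these changes were 0.64 and 0.43. Rad51d, another paralog of the recombinase, rose in plasma over naive cells by 0.56 ± 0.17 (adjusted p = 0.02) and differed by -0.01 ± 0.18 (adjusted p = 0.969) in germinal center cells. Its 4 probe sets pointed both ways, and their mean gave -0.085 in plasma over naive cells. The call of the chosen probe set was lost without plasma replicate 1 or naive replicate 3 (log2 fold change 0.44 to 0.47, adjusted p 0.0615 to 0.0921). Rad52, a strand annealing protein, was above background on 8 of 14 arrays and passed no test, with -0.42 ± 0.17 (adjusted p = 0.0961) in germinal center over naive cells.

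Break sensing genes were mixed: 2 of 5 rose in germinal center over naive cells, and in plasma over naive cells 1 rose and 2 fell. H2AX is the histone variant phosphorylated around breaks. H2ax read 249, 317 and 666 on the germinal center arrays, 139, 185, 171 and 145 on the plasma arrays and 80.8, 38.4, 62 and 67.2 on the memory arrays, against 67.4, 98.5 and 79.4 on the naive arrays. Germinal center arrays were highest, and plasma arrays lay between them and naive arrays. Over naive cells it rose by 2.21 ± 0.33 (adjusted p = 0.000186) in germinal center and 0.97 ± 0.30 (adjusted p = 0.0243) in plasma cells. The plasma call was lost without plasma replicate 2 or 3 or naive replicate 1 or 3 (log2 fold change 0.84 to 0.96, adjusted p 0.0527 to 0.104). NBN, a subunit of the complex that senses broken ends, was the only member called in memory over naive cells. Nbn read 468, 345 and 499 on the germinal center arrays, 117, 214, 152 and 94.2 on the plasma arrays and 86.8, 114, 101 and 84.7 on the memory arrays, against 191, 254 and 249 on the naive arrays. All memory arrays were below all naive arrays, and all germinal center arrays were above them. Nbn fell in memory over naive cells by 1.26 on the log2 scale (SE 0.24, adjusted p = 0.00654) and rose in germinal center over naive cells by 0.91 ± 0.26 (adjusted p = 0.0215). In plasma over naive cells its log2 fold change was -0.73 ± 0.24 (adjusted p = 0.0311), with 1 plasma array inside the naive range. That call was lost in 9 of 14 alternative settings. It was also lost without plasma replicate 1 or 4 or naive replicate 2 or 3 (log2 fold change -0.68 to -0.55, adjusted p 0.0823 to 0.101). The germinal center call of Nbn was lost without germinal center replicate 1 or 3 or naive replicate 1 (log2 fold change 0.78 to 0.85, adjusted p 0.0623 to 0.0938).

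ATM is the kinase that answers double-strand breaks. Atm read 654, 160.4 and 417 on the germinal center arrays, 111, 124, 152 and 79.3 on the plasma arrays and 288, 463, 603 and 479 on the memory arrays, against 516, 279 and 537 on the naive arrays. Plasma arrays lay below all memory and naive arrays, while germinal center arrays ranged between 160.4 and 654 and overlapped with naive arrays. The log2 fold change was -1.91 ± 0.41 (adjusted p = 0.00228) in plasma and -0.27 ± 0.44 (adjusted p = 0.725) in germinal center over naive cells. A second Atm probe set, above background on all arrays, gave -0.18 in plasma and 1.03 in germinal center over naive cells, so both comparisons depended on the probe set. The mean over probe sets gave -1.04 in plasma over naive cells. Rad50, the structural partner of NBN, passed no test and differed by 0.51 ± 0.26 (adjusted p = 0.204) in germinal center over naive cells. Mdc1, which binds phosphorylated H2AX, was above background on 4 of 14 arrays and passed no test (adjusted p = 0.177 in germinal center over naive cells).

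In the Fanconi pathway, 5 of 9 members rose in germinal center and 4 of 9 in plasma over naive cells, and none fell in either. The clamp FANCD2 with FANCI is the substrate that receives ubiquitin at crosslinks. Fancd2 read 129, 133 and 220.2 on the germinal center arrays, 36.3, 63.8, 63.3 and 55.3 on the plasma arrays and 11.2, 8.56, 13.6 and 7.32 on the memory arrays, against 9.7, 6.86 and 14.9 on the naive arrays. Germinal center arrays were highest and plasma arrays intermediate, and memory and naive cells were each above background on 1 array. The log2 fold change was 3.96 ± 0.32 (adjusted p = 5.96e-07) in germinal center and 2.42 ± 0.30 (adjusted p = 1.92e-05) in plasma over naive cells. A second Fancd2 probe set gave smaller changes of 1.03 and 1.10, and the mean over 4 probe sets gave 1.35 and 0.94. Fanci read 70.7, 73.1 and 103 on the germinal center arrays, 66.3, 117, 94.4 and 62.3 on the plasma arrays and 29.5, 27.2, 22.3 and 30.9 on the memory arrays, against 33, 28.1 and 47.8 on the naive arrays. Germinal center and plasma arrays overlapped with each other and stood above naive arrays, by 1.20 ± 0.26 (adjusted p = 0.00396) and 1.22 ± 0.24 (adjusted p = 0.00125). With its other probe set, which was nowhere above background, averaged in, they were 0.75 and 0.66.

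FANCB and FANCL belong to the ligase core, with FANCL as its catalytic subunit, and FANCM is a DNA translocase that anchors it. Fancb read 152, 132 and 179 on the germinal center arrays, 148, 268, 280.2 and 164 on the plasma arrays and 54.2, 71.5, 51.6 and 54 on the memory arrays, against 83.5, 61.6 and 67.8 on the naive arrays. Its log2 fold change was 1.12 ± 0.24 (adjusted p = 0.00403) in germinal center and 1.55 ± 0.23 (adjusted p = 8.91e-05) in plasma over naive cells, with no overlap. A dimmer Fancb probe set gave -0.05 in germinal center and -0.31 in plasma over naive cells. Both calls were lost with the mean of the 2 probe sets (0.54, adjusted p = 0.172 in germinal center and 0.62, adjusted p = 0.0685 in plasma cells). Fancm read 235, 326 and 469 on the germinal center arrays, 148, 160.2, 174 and 147 on the plasma arrays and 148, 76.8, 103 and 112 on the memory arrays, against 186, 139 and 123 on the naive arrays. Only germinal center arrays stood above naive arrays, by 1.17 ± 0.26 (adjusted p = 0.0047), and plasma cells differed from naive cells by 0.09 ± 0.24 (adjusted p = 0.821). Another Fancm probe set gave -0.64 in germinal center over naive cells, the opposite sign. The germinal center call of Fancm was lost with the mean over probe sets (0.38, adjusted p = 0.139) and after adjustment for the actin ratio, where the change was no smaller (1.36, adjusted p = 0.0568). Fancl rose in germinal center over naive cells by 0.92 ± 0.29 (adjusted p = 0.0417). That call was lost in 10 of 14 alternative settings and without germinal center replicate 1, plasma replicate 1, 2, 3 or 4, memory replicate 2 or 4 or naive replicate 2 or 3 (log2 fold change 0.53 to 0.92, adjusted p 0.0509 to 0.159). Germinal center replicate 1 read 734 where the other two read 357 and 298. Fanca rose in plasma over naive cells by 0.93 ± 0.25 (adjusted p = 0.0108) and gave 0.39 ± 0.27 (adjusted p = 0.365) in germinal center cells. The plasma call was lost without naive replicate 2 (log2 fold change 0.77, adjusted p 0.0563). Fancc and Fancg, both core subunits, passed no test, with 0.04 and 0.15 in germinal center over naive cells. Usp1, which removes ubiquitin from the clamp, had a mean of 3649.5 in germinal center cells, 3678 in plasma cells and 1832 in memory cells, against 2813 in naive cells. It passed the test only against memory cells, 1.00 ± 0.16 (adjusted p = 0.000168) in plasma over memory cells and -0.99 ± 0.17 (adjusted p = 0.000704) in memory over germinal center cells.

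In the replication checkpoint, 4 of 6 members rose and 1 fell in germinal center over naive cells, and likewise in plasma over naive cells. With the chosen probe sets Atr fell where Chek1, Clspn, Chek2 and Topbp1 rose, but in germinal center cells the fall of Atr depended on setting and probe set. Chek1 read 1217, 1226 and 1131 on the germinal center arrays, 561, 636, 705 and 478 on the plasma arrays and 27.7, 16.6, 20.9 and 17.1 on the memory arrays, against 35, 29.4 and 26 on the naive arrays. CHK1 is the effector kinase of the stalled fork checkpoint. Its germinal center arrays were within 1131 and 1226, above all plasma arrays, and these were above all memory and naive arrays. The rise was 39.8-fold in germinal center (5.32 ± 0.20 on the log2 scale, adjusted p = 3.97e-10) and 19.7-fold in plasma over naive cells (4.30 ± 0.19, adjusted p = 4.78e-10). Chek1 has 4 other probe sets. One gave 2.76 in germinal center and 2.86 in plasma over naive cells, another, above background on 3 arrays, gave 1.31 and -0.01, and the mean over all 5 gave 1.98 and 1.53. Claspin is the adaptor through which ATR reaches CHK1. Clspn read 168, 182 and 164 on the germinal center arrays, 73.9, 194, 218 and 68.5 on the plasma arrays and 12.4, 11.9, 13.9 and 13.6 on the memory arrays, against 15.6, 14 and 13.8 on the naive arrays. Plasma replicates 2 and 3 were above all germinal center arrays, while 1 and 4 were below them. Its log2 fold change was 3.57 ± 0.36 (adjusted p = 4.94e-06) in germinal center and 3.06 ± 0.33 (adjusted p = 5.43e-06) in plasma over naive cells. A second Clspn probe set, above background on 11 arrays, passed neither test, with 0.68 in germinal center and 0.53 in plasma over naive cells, and the mean of both gave 2.12 and 1.80. Chek2 read 220.3, 158 and 181 on the germinal center arrays, 145, 188, 191 and 170.4 on the plasma arrays and 56, 75.2, 40.9 and 57.4 on the memory arrays, against 80.3, 77.5 and 51.5 on the naive arrays. CHK2, the effector of ATM, overlapped between germinal center and plasma arrays and rose over naive cells by 1.43 ± 0.23 (adjusted p = 0.000345) and 1.34 ± 0.21 (adjusted p = 0.000189). Topbp1 read 986, 571 and 1313 on the germinal center arrays, 824, 962, 1021 and 555 on the plasma arrays and 253, 365, 290.0 and 254 on the memory arrays, against 430.1, 454 and 469.9 on the naive arrays. TOPBP1, the activator of ATR, rose over naive cells by 1.00 ± 0.28 (adjusted p = 0.0196) in germinal center and 0.86 ± 0.26 (adjusted p = 0.0206) in plasma cells. A second probe set of Topbp1 gave 1.31 in germinal center but -0.26 in plasma over naive cells. With the mean over probe sets the plasma call was lost (0.30, adjusted p = 0.375), and after adjustment for the actin ratio the germinal center change was larger (1.86, adjusted p = 0.00142). The chosen probe set's call was lost without germinal center replicate 1 or 3 or naive replicate 1 (log2 fold change 0.73 to 0.97, adjusted p 0.0575 to 0.0753) in germinal center cells, and without plasma replicate 2 or 3 or naive replicate 1 or 2 (log2 fold change 0.76 to 0.86, adjusted p 0.051 to 0.0685) in plasma cells.

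ATR is the kinase activated at stalled forks. Atr read 194, 102 and 209 on the germinal center arrays, 156, 126, 129 and 105 on the plasma arrays and 223, 358, 273 and 284 on the memory arrays, against 486, 223 and 327 on the naive arrays. Germinal center and plasma arrays lay below all naive arrays, and memory arrays overlapped with naive arrays. The log2 fold change was -1.04 ± 0.30 (adjusted p = 0.0253) in germinal center and -1.36 ± 0.28 (adjusted p = 0.00171) in plasma over naive cells. The germinal center call was lost without germinal center replicate 2 or naive replicate 1 or 3 (log2 fold change -1.04 to -0.71, adjusted p 0.0638 to 0.124), after adjustment for the actin ratio (-0.25, adjusted p = 0.851), with the mean over all probe sets (-0.53, adjusted p = 0.269) and with intensities floored at 16 (-1.04, adjusted p = 0.0624), whereas the plasma call was kept in all 14 settings and without each array in turn. A second Atr probe set, above background on all arrays, gave -0.01 in germinal center and -1.22 in plasma over naive cells. It was called in neither when all probe sets were tested (adjusted p = 0.991 and 0.0672). Atrip, the partner that brings ATR to single-stranded DNA, was above background on 2 arrays only. It was called in plasma over memory cells (adjusted p = 0.00763), with 1 of 4 plasma arrays above background. No fold is given, and the call was lost with intensities floored at 16 and with quantile normalization (adjusted p = 0.0509).

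Among the junction processing genes, 2 of 5 rose and 1 fell in germinal center over naive cells, and likewise in plasma over naive cells. BLM is the helicase that dissolves double Holliday junctions. Blm read 606, 431 and 604 on the germinal center arrays, 235, 340.0, 348 and 294 on the plasma arrays and 47, 58.6, 77.6 and 65.6 on the memory arrays, against 105, 58.1 and 164 on the naive arrays. All germinal center and plasma arrays were above all memory and naive arrays, by 2.43 ± 0.31 (adjusted p = 4.88e-05) and 1.59 ± 0.29 (adjusted p = 0.000638) over naive cells. EME1 is the partner of the nuclease MUS81. Eme1 read 182, 63.2 and 199.7 on the germinal center arrays, 137, 296, 212 and 143 on the plasma arrays and 12.9, 13.3, 12.1 and 10.7 on the memory arrays, against 13.7, 25.3 and 19.1 on the naive arrays. Germinal center replicate 2 was the lowest of that subset, and plasma and germinal center arrays overlapped. The log2 fold change was 2.81 ± 0.39 (adjusted p = 0.000116) in germinal center and 3.32 ± 0.37 (adjusted p = 6.34e-06) in plasma over naive cells. Its partner Mus81 passed no test, with 0.15 ± 0.27 (adjusted p = 0.753) in germinal center and -0.33 ± 0.25 (adjusted p = 0.367) in plasma over naive cells. ERCC4 is the nuclease subunit that incises at crosslinks and bulky lesions. Ercc4 read 44.2, 36.1 and 45.4 on the germinal center arrays, 29.7, 29.7, 25.5 and 28.1 on the plasma arrays and 88.2, 81.2, 113 and 108 on the memory arrays, against 102, 65.3 and 97.4 on the naive arrays. Plasma arrays were lowest and germinal center arrays next, and neither overlapped with memory or naive arrays. Ercc4 thus fell in both, with -1.06 ± 0.18 (adjusted p = 0.000802) in germinal center and -1.62 ± 0.17 (adjusted p = 4.2e-06) in plasma over naive cells. Other Ercc4 probe sets above background on all arrays gave -0.35 and -0.53 in germinal center and -0.43 and -0.12 in plasma over naive cells. The mean over probe sets gave -0.45 and -0.52. After adjustment for the actin ratio the germinal center change of Ercc4 was -0.87, adjusted p = 0.0858, which passed no test. Slx4, a nuclease scaffold, passed no test and gave 0.77 ± 0.27 (adjusted p = 0.0588) in germinal center over naive cells.

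**Figure D3:**
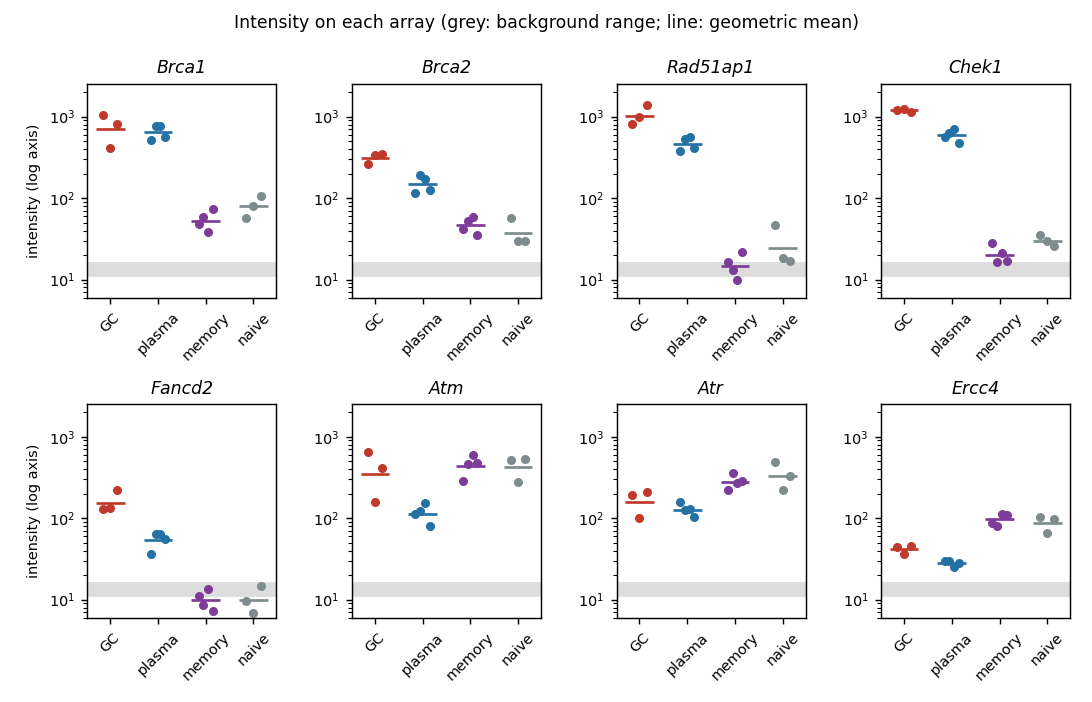
Intensity on each array (points, log axis) and geometric mean (line) of 8 genes in germinal center (GC), plasma, memory and naive cells, with the range of array backgrounds in grey. Brca1, Brca2, Rad51ap1, Chek1 and Fancd2 are higher in germinal center and plasma cells than in memory and naive cells, Atm is lowest in plasma cells, and Atr and Ercc4 are lower in germinal center and plasma cells.

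Many of these transcripts were lower in plasma cells than in germinal center cells, as were many DNA replication genes. The dividing cell markers passed no test. In plasma over germinal center cells, 14 members fell and 1 rose, while 12.6% of all genes were called lower and 11.2% higher. The median log2 fold change was -0.35, beside -0.02 over all genes. The 9 dividing cell markers gave 0 higher and 0 lower by limma, also at an unadjusted p under 0.05, with a median of 0.20. Their standard errors were 0.269 to 0.482, so a shift the size of the members' median could have been missed. Of 36 DNA replication genes, 38.9% were lower, as were 30% of 10 genes of replication protein A and the clamp loader. A fall was thus not particular to the members (37.8%). The 14 members that fell were Brca2, Palb2, Rad51ap1, Rad54b, Xrcc3, Nbn, H2ax, Atm, Fancd2, Fancl, Fancm, Chek1, Blm and Ercc4. Of these, 12 had no overlap between the subsets. Lower calls with no overlap made up 11.5% of all genes and 91.2% of all genes called lower. Rad54b and Xrcc3 did overlap. The changes were -1.73 ± 0.51 (adjusted p = 0.0227) for Rad54b, -1.65 ± 0.24 (adjusted p = 0.000117) for Nbn, -1.59 ± 0.28 (adjusted p = 0.000529) for Fancl, -1.54 ± 0.30 (adjusted p = 0.00133) for Fancd2, -1.24 ± 0.30 (adjusted p = 0.00756) for H2ax, -1.09 ± 0.26 (adjusted p = 0.00642) for Brca2, -1.11 ± 0.23 (adjusted p = 0.00193) for Palb2 and -1.02 ± 0.19 (adjusted p = 0.000853) for Chek1. A second probe set of Chek1 gave 0.10 and one of Fancd2 gave 0.06, and the means over their probe sets gave -0.45 and -0.41. Rad51d rose, by 0.57 ± 0.17 (adjusted p = 0.0219). Its call was lost without germinal center replicate 1 or plasma replicate 1 (log2 fold change 0.39 to 0.46, adjusted p 0.0655 to 0.114). Brca1 did not pass the test, with -0.14 ± 0.32 (adjusted p = 0.819) and a 95% interval of -0.82 to 0.54, nor did Chek2 with -0.10 ± 0.21 and an interval of -0.55 to 0.36. The call of Blm, -0.85 ± 0.29 (adjusted p = 0.0471), was lost in 7 of 14 alternative settings and without germinal center replicate 1 or 3, plasma replicate 1, 2, 3 or 4, memory replicate 2, 3 or 4 or naive replicate 1 (log2 fold change -0.92 to -0.73, adjusted p 0.0502 to 0.134). That of Rad51ap1, -1.15 ± 0.34 (adjusted p = 0.0244), was lost without germinal center replicate 2 or 3 or plasma replicate 1 or 4 (log2 fold change -1.19 to -0.94, adjusted p 0.0504 to 0.106). The call of Rad54b was lost without germinal center replicate 1 or 3 or plasma replicate 1 or 4 (log2 fold change -1.51 to -1.35, adjusted p 0.0687 to 0.108), and that of Ercc4, -0.56 ± 0.17 (adjusted p = 0.0267), was lost without germinal center replicate 1 or 3 or plasma replicate 3 or 4 (log2 fold change -0.56 to -0.50, adjusted p 0.0523 to 0.091). The Rad54b call was also lost with the replicate block (-1.52, adjusted p = 0.0614), the floor at 16 (-1.72, adjusted p = 0.0602), only the 2 subsets in the fit (-1.73, adjusted p = 0.102) and array weights (-1.37, adjusted p = 0.116). The actin ratio as a covariate ended the calls of Rad51ap1 (-1.33, adjusted p = 0.0585), Xrcc3 (-1.05, adjusted p = 0.117), Blm (-0.94, adjusted p = 0.117) and Rad51d (0.52, adjusted p = 0.133). The mean over probe sets ended those of Rad51ap1 (-0.45, adjusted p = 0.0658), Xrcc3 (-0.60, adjusted p = 0.0609), Fancm (-0.36, adjusted p = 0.134), Ercc4 (-0.07, adjusted p = 0.733) and Rad51d (0.25, adjusted p = 0.107). Without germinal center replicate 3 the fall of H2ax was -0.82 (adjusted p = 0.0361).

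**Figure D4:**
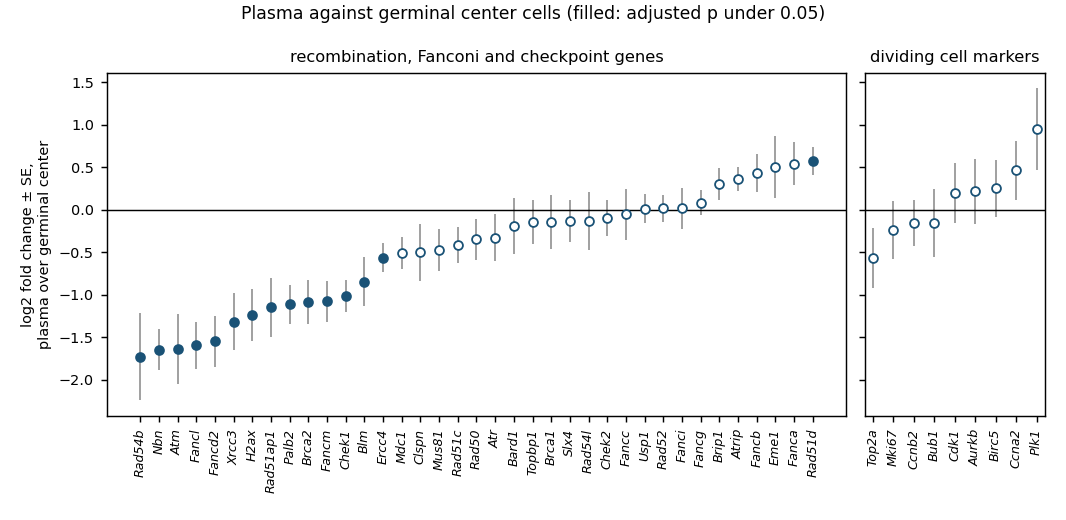
Log2 fold change (points) and standard error (bars) in plasma over germinal center cells for the 37 repair and checkpoint genes (left, sorted) and 9 dividing cell markers (right). Filled points have an adjusted p under 0.05: 14 members lie below 0 and 1 above it, and the markers have 0 filled points.

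Memory cells were set against both activated subsets. In memory over germinal center cells, 23 members fell and 1 rose, beside 11.5% and 11% of all genes, and the median log2 fold change was -1.45 beside -0.08. Ercc4 was the gene that rose, by 1.21 ± 0.17 (adjusted p = 0.000129), and the largest falls were -6.12 ± 0.34 (adjusted p = 1.54e-08) for Rad51ap1 and -5.88 ± 0.19 (adjusted p = 8.39e-11) for Chek1. With the mean over probe sets these falls were -2.99 and -2.25, and the rise of Ercc4 was 0.51. In plasma over memory cells, 22 members rose and 3 fell, beside 17.2% and 16% of all genes, with a median of 1.01 beside 0.08. The 3 that fell were Atm, -1.97 ± 0.38 (adjusted p = 0.000862), Atr, -1.13 ± 0.26 (adjusted p = 0.00335), and Ercc4, -1.78 ± 0.16 (adjusted p = 6.25e-07). Their means over probe sets gave -1.15, -1.70 and -0.58. Germinal center over naive and plasma over memory cells share no arrays, but both come from the same fit with a common estimate of spread. Of the 23 members higher in the first and the 22 higher in the second, 19 were common, 82.6% of the first list and 86.4% of the second. The common share among all genes was not computed, so this overlap cannot be called particular to the members. All 9 measured dividing cell markers also rose in both comparisons. Palb2, Nbn, Fancl and Fancm were on the first list alone, and Rad51d, Usp1 and Atrip on the second alone. Rad51d left the second list without plasma replicate 1 or 3 or memory replicate 2, 3 or 4 (log2 fold change 0.36 to 0.49, adjusted p 0.0502 to 0.102).

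By group means, 24 of 37 members were highest in germinal center cells, where 31.6% of all genes had their highest mean, and 9 in plasma cells, where 33.1% did. Likewise 24 members were lowest in memory cells, beside 30.5% of all genes. On all 14 arrays, 24 members were above background, beside 45.4% of all genes. Among the germinal center arrays, replicates 1, 2 and 3 gave the lowest value for 9, 10 and 4 of the 23 members that rose. Rad52, Rad50, Mdc1, Fancc, Fancg, Mus81 and Slx4 were called in none of the 6 comparisons.

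Other genes of the same pathways were taken from fixed lists. Of 22 other recombination genes, 10 rose and 1 fell in germinal center over naive cells. They included Parpbp (4.60 ± 0.34, adjusted p = 2.63e-07), which restrains recombination, the end-resecting nucleases Exo1 (4.37 ± 0.30, adjusted p = 1.11e-07) and Dna2 (3.70 ± 0.27, adjusted p = 2.22e-07), and Fignl1 (3.79 ± 0.26, adjusted p = 9.69e-08). Of 15 other Fanconi genes, 7 were called, all higher, among them Uhrf1 (3.82 ± 0.28, adjusted p = 2.65e-07) and Ube2t (2.99 ± 0.28, adjusted p = 2.34e-06), the ubiquitin conjugating enzyme of the pathway. Of 25 other checkpoint and break signalling genes, 9 were called, all higher, among them Cdc25c (5.86 ± 0.24, adjusted p = 6.24e-10), a phosphatase that starts mitosis, and Wee1 (2.15 ± 0.23, adjusted p = 1.05e-05), the kinase that delays it. On naive arrays Cdc25c, Uhrf1 and Ube2t were above background on 1 of 3 and Parpbp and Exo1 on 2 of 3, so their fold changes are set against values near background. Of 15 other junction processing genes, 6 rose and 2 fell, with Recql4 at 2.49 ± 0.23 (adjusted p = 2.55e-06) and Gen1, a resolvase that was above background on no naive array, at least 4.42-fold higher (adjusted p = 0.00446). All 7 calls among 10 genes of replication protein A and the clamp loader were higher, with Rfc4 at 3.06 ± 0.23 (adjusted p = 2.56e-07).

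Neighbouring repair pathways differed in their counts. In germinal center over naive cells, 26 of 36 DNA replication genes were called, all higher, with a median of 1.92. Of 12 mismatch repair and hypermutation genes, 5 rose and 1 fell, with a median of 0.495. Exo1 is on this list and among the other recombination genes, so the lists are not all separate. Of 13 end joining genes, 3 rose and 1 fell, with a median of 0.06, equal to that of all genes. In plasma over germinal center cells, 11.2% of all genes were called higher and 12.6% lower. Of 36 DNA replication genes 1 was higher (2.78%) and 14 lower (38.9%). Of 13 end joining genes 2 were higher (15.4%) and 4 lower (30.8%). Of 22 other recombination genes 2 were higher (9.09%) and 4 lower (18.2%). Of 15 other Fanconi genes 3 were higher (20%) and 6 lower (40%). The 5 calls among 12 mismatch repair genes (41.7%) and the 8 among 25 other checkpoint genes (32%) were all lower. A list of 22 measured target genes of the damage response factor p53 was also counted. In germinal center over naive cells 3 of them rose (13.6%) and 4 fell (18.2%), beside 8.37% and 11.1% of all genes. In plasma over naive cells 7 rose (31.8%) and 5 fell (22.7%), beside 14.2% and 16.1%. Cdkn1a, the cell cycle inhibitor among them, rose in plasma over naive cells by 1.26 ± 0.26 (adjusted p = 0.00164) and gave 0.57 ± 0.28 (adjusted p = 0.181) in germinal center cells. Mdm2, a ubiquitin ligase, rose in plasma over naive cells by 0.98 ± 0.24 (adjusted p = 0.00522) and gave -0.24 ± 0.25 (adjusted p = 0.579) in germinal center cells. The largest changes of the list in plasma over naive cells were falls, of Xpc (-3.32 ± 0.29, adjusted p = 5.99e-07) and Sesn1 (-2.75 ± 0.305, adjusted p = 6.48e-06).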

How the data were processed

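The members and the gene lists were chosen with earlier results of these data known. Values are intensities on a linear scale, deposited by the authors after RMA normalization per the submitters' processing notes. Version and chip definition are not given in the sources used here. Of 45101 probe sets, 64 are controls, 34945 carry 1 gene symbol, 932 several and 9160 none. Only those with 1 symbol were tested, the brightest per gene, which left 18193 genes. Intensities were converted to log2 with no pseudocount or further scaling.

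Linear models (limma 3.58.1 in R 4.3.3) fitted 1 mean per subset over all 14 arrays, with 10 residual degrees of freedom and empirical Bayes moderation, after a test on simulated data. Benjamini-Hochberg adjustment ran over all genes within each of 6 comparisons. Array values are named for genes called with at least 2-fold change over naive cells, at most 5 per role, plus the best known member of each role; of each other list, up to 4 called genes with the largest changes may be named. No pair of arrays held identical values, and correlations within a subset were 0.968 to 0.994. Replicate numbers are not stated to pair the subsets. Of 19 same-number pairs, 6 had correlated deviations above 0.1 (range -0.321 to 0.246), beside -0.348 to 0.352 for pairs with different numbers. With 3 or 4 arrays per subset these values cannot exclude pairing. Array number limits precision. Figures used matplotlib 3.10.9.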

Additional observations from a re-analysis of the deposited data

Results flagged for a closer look

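In memory cells, 1 array stood apart from the other three for 3 genes by Dixon's criterion. Fanca read 169 on memory replicate 2 and 103 to 112 on the others. Fancb read 71.5 on the same array and 51.7 to 54.2 on the others. Fancl read 109 on memory replicate 1 and 181 to 191 on the others. Of 74 groups of 4 arrays tested this way, 3 were picked out, and chance alone picks out about 1 in 20.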

How the results depend on the processing

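Of 115 called differences of members over the 6 comparisons, 80 kept direction and call in all settings tried (quantile normalization, centring on the median gene or on bright genes, a filter or floor on dim values, all probe sets or their mean, a variance trend, only the compared subsets, stricter thresholds, the actin ratio as covariate, array weights, replicate block), and 95 when any 1 array was left out. Members higher in germinal center over naive cells numbered 17 to 26 over the settings (23 as reported), with 21 under the actin covariate and 19 when arrays were centred on the median gene. Genes with a mean log2 of at least 6 shifted by a median of -0.20 in germinal center cells, -0.25 in plasma cells and -0.21 in memory cells over naive cells.

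With the replicate number as a block, 21 members were higher in germinal center over naive cells and 111 of the 115 calls were kept. Small counts moved. Members lower in germinal center over naive cells were 1 with the floor at 16, with only the 2 subsets or at an adjusted p under 0.01, and 0 with the actin covariate (2 as reported). Those lower in memory over naive cells were 2 with the mean of probe sets or array weights and 3 with only the 2 subsets or the actin covariate (1 as reported). Those higher in memory over germinal center cells were 2 with quantile normalization, centring on bright genes, the filter on dim genes or the mean of probe sets (1 as reported). Rad51d, the member higher in plasma over germinal center cells, was lost, leaving 0, with the mean of probe sets, the variance trend, only the 2 subsets, the stricter p, the 2-fold minimum, the actin covariate or array weights. Leaving out 1 array in turn gave 1 to 2, 1 to 2, 1 to 2 and 0 to 2 for these 4 counts. Rad51d in plasma over naive cells turned to -0.085 with the mean of probe sets, since its probe sets have opposite signs. Other causes were not tested. Intensities near background limit Bard1, Brip1, Atrip, Mdc1, Fancg and Rad52.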
